A study of Mus musculus with 3 samples.

Results

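The genes examined were 10 scavenger and phagocytic receptors and related proteins of macrophages, namely Msr1, Marco, Cd36, Scarb1, Scarb2, Cd68, Cd5l, Mertk, Axl and Trem2. They were chosen by symbol, as every gene probe carrying one of these names. No measured value entered that rule, but the list was drawn up with earlier results of these data known. They made up 10 of 26510 genes with a symbol on the array and 16 of 56605 gene probes. Msr1, Scarb1, Scarb2, Cd68 and Axl had more than 1 probe, and each of the other 5 genes had 1.

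Scavenger receptors bind polyanionic and lipid ligands such as modified lipoproteins and the surfaces of bacteria, and many of them deliver their ligand to the lysosome. Class A receptors are collagen-like trimers of the cell surface, class B receptors span the membrane at both ends and handle lipids, and CD68 lies mostly in endosomes and lysosomes. MERTK, AXL and TREM2 serve the clearance of dying cells. The kinases MERTK and AXL reach phosphatidylserine through the bridging protein GAS6, and MERTK also does so through protein S. TREM2 binds lipids and signals through the adapter DAP12.

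RNA of RAW cells, a mouse macrophage line, was hybridised in 1 colour to a SurePrint G3 Mouse GE microarray. Data of 3 arrays were analysed, 1 for each condition. In the LPS condition macrophages received LPS at 50 ng/mL without lactobacilli. In the CRL1505 + LPS and CRL1506 + LPS conditions the same LPS followed 24 h with *L. rhamnosus* CRL1505 or *L. plantarum* CRL1506 at 50000000 cells/mL and a wash. The time of LPS was 12 h in the methods and 3 h in the sample descriptions. Arrays of cells without LPS were not analysed here, so the comparisons show how each strain's array differed from LPS alone and not the response to LPS. Since each condition had 1 array, no difference could be checked between replicates, none was tested and no p-value was computed. The CRL1505 + LPS array came from a slide and scan run of its own, apart from the slide that held the other two arrays, so that for CRL1505 an effect of the strain cannot be told apart from one of the slide. In RNA of a whole culture, fewer cells with a transcript and less of the transcript in each cell cannot be told apart either.

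On the LPS, CRL1505 + LPS and CRL1506 + LPS arrays, in that order, 75% of gene spots had a signal under 743, 517 and 698, and 48.5% to 55.3% of gene spots were well above background by the scanner software. All 10 macrophage markers, Csf1r, Adgre1, Itgam, Cd14, Lyz2, Fcgr1, Ptprc, Spi1, Tlr4 and Mpeg1, were well above background on every array. Their summed level, in units of the 75th percentile, was 724, 733 and 586 in the same order. Of 27 markers of T cells, B cells, neutrophils, dendritic cells, fibroblasts, epithelium and endothelium, 10, 10 and 16 were well above background on the respective arrays, and Cd3e was the only one above the 75th percentile on any array. Their part in the results was not tested. None of the 48 member spots was an outlier or unevenly lit, and no gene spot was saturated.

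The results turned on the probes of Marco, Trem2, Scarb1 and Msr1. For Marco, Trem2, the dimmer Scarb1 probe and both Msr1 probes the first 30 of 60 bases, as the array files give them, are shown so that the values below can be tied to a stretch of transcript. Both Msr1 probes are shown because they read different stretches of the same gene. Positions on mm9 were taken from the files. No gene annotation of that build was used, so exons and untranslated regions are not named. The Marco probe lay at chr1:122371115-122371134 on the minus strand, where the files place only 20 of its bases. The Trem2 probe lay at chr17:48491537-48491596 on the plus strand. The dimmer Scarb1 probe lay at chr5:125777604-125777663 on the minus strand. The brighter Msr1 probe lay at chr8:40709296-40709355 and the dimmer at chr8:40689158-40689217, both on the minus strand.
Marco probe: gagcccgagaggtcatcagtgtgtccccag
Trem2 probe: acagctggatggttgtctgtcaacttctgc
Scarb1 dimmer probe: gggcagatgtgggcacccttcatgacaccc
Msr1 brighter probe: gacactgcttgatgttcaactccatacaga
Msr1 dimmer probe: aagtcatcttacatccaaaactacacgtat

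The promoters of Marco and Trem2 are shown because these genes had log2 ratios of opposite sign after CRL1505, 2.31 and -0.90, of which only that of Marco passed 2-fold. RefSeq promoters of GRCm38.p6 were matched for 8 of the 10 genes, all but Msr1 and Scarb1, and the 250 bases before the start were searched on both strands for 4 motifs. Capitals mark the motifs found. The Marco promoter at chr1:120505025-120505274, on the minus strand, held the PU.1 core GAGGAA at 146 to 141 bases before the start. The Trem2 promoter at chr17:48346151-48346400, on the plus strand, held the same core on the other strand, as TTCCTC, at 40 to 35 bases and the AP-1 motif TGANTCA at 9 to 3 bases before the start.
Marco promoter: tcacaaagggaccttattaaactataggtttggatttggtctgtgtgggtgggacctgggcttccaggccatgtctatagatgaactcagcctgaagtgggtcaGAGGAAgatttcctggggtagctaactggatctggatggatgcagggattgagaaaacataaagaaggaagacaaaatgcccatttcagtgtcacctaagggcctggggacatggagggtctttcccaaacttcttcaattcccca
Trem2 promoter: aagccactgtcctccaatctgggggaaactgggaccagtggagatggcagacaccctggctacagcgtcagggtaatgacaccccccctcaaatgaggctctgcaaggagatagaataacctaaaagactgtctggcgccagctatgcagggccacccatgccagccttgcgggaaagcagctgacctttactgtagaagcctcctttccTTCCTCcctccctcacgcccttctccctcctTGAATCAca

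PU.1 is a transcription factor of the myeloid lineage, and AP-1 is a dimer of Fos and Jun proteins. The PU.1 core was found in 5 of the 8 members' promoters (Axl, Cd5l, Cd68, Marco and Trem2) and in 23.3% of all 32851 promoters of the same length. The AP-1 motif was found in 2 of 8, Cd68 and Trem2, and in 6.75% of all promoters. Neither the interferon-stimulated response element, in 2.98% of all promoters, nor the NF-kappaB motif, in 0.356%, was found in these windows of the members. No motif overlapped another. A match is a description of these letters and not a site of binding.

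After both strains, Marco was the member that differed most from LPS alone. With the 75th percentile scaling it was the only one past the 2-fold threshold in either comparison. It rose 4.95-fold in CRL1505 + LPS and 2.01-fold in CRL1506 + LPS. Scarb1 and Trem2 were the lowest members in CRL1505 + LPS, at 1.96-fold and 1.86-fold below LPS, just short of that threshold. Read from the brightest probe of each gene, the remaining members that were well above background on both arrays lay within 1.30-fold of LPS with either strain. The dimmer probe of Msr1 was 1.35-fold higher after CRL1505, and that of Scarb2 was 1.45-fold lower after CRL1506. Counted over the list, 1 of 9 members compared was at least 2-fold higher in CRL1505 + LPS, where 9.85% of all 15475 genes compared were, and 0 of 9 were at least 2-fold lower, where 8.46% were, or 18.3% in either direction. In CRL1506 + LPS 1 of 9 was higher, beside 5.61% of 16140 genes, and 0 of 9 were lower, beside 3.53%, or 9.14% in either direction. With so few members these counts are near the background. The median absolute log2 ratio of the members was 0.17 for CRL1505 and 0.24 for CRL1506, against 0.41 and 0.26 over all genes. Both comparisons used the same LPS array, so that its error enters both.

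**Figure D1:**
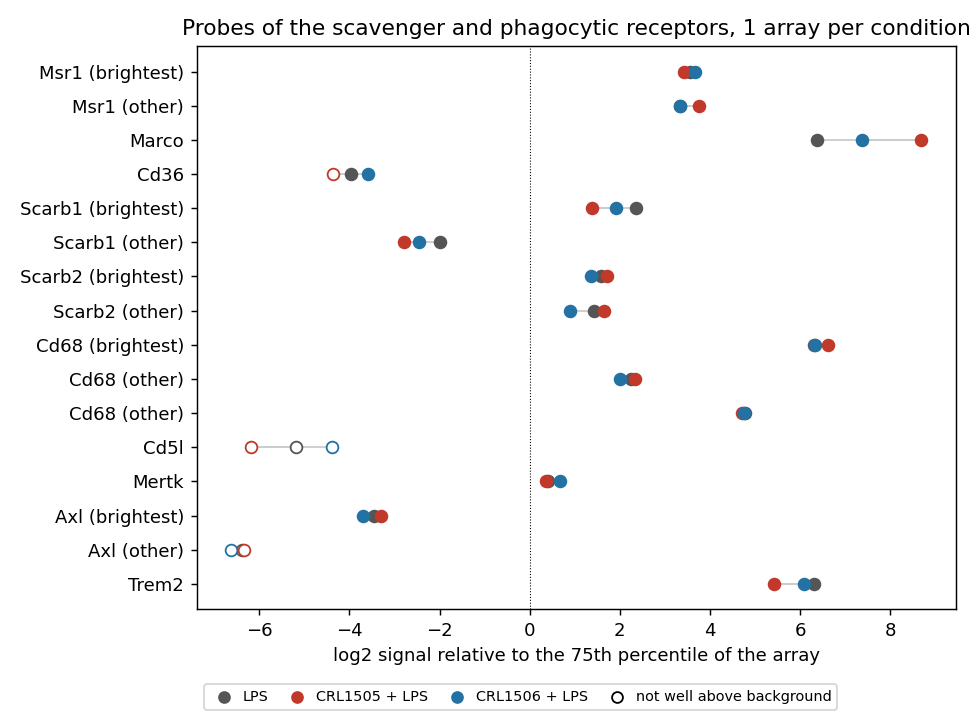
Level of each of the 16 probes of the 10 genes on the 3 arrays, as the log2 processed signal relative to the 75th percentile of the array (x axis, dotted line at 0), with 1 point per array and open points where the probe was not well above background. Marco separates the arrays most among the filled points, from 6.38 in LPS to 8.68 in CRL1505 + LPS, while both Scarb1 probes run in the opposite order.

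The class A receptors MARCO and MSR1 bind unopsonised bacteria and other polyanionic particles. The processed signal of the Marco probe was 61708 in LPS, 212642 in CRL1505 + LPS and 116508 in CRL1506 + LPS. Relative to the 75th percentile of each array the log2 level was 6.38, 8.68 and 7.38, respectively, so that LPS was lowest, CRL1506 + LPS lay between and CRL1505 + LPS was highest. The log2 ratio to LPS was 2.31 for CRL1505 and 1.01 for CRL1506. Over 7 other normalizations it ranged from 1.80 to 2.60 for CRL1505, past 2-fold in 7 of 7, and from 0.81 to 1.17 for CRL1506, past 2-fold in 4 of 7. A ratio at least as high as that of Marco was seen for 2.10% of genes compared after CRL1505 and for 5.53% after CRL1506.

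For Msr1 the probe with the higher mean over the arrays, called the brighter, had log2 levels of 3.56 in LPS, 3.42 in CRL1505 + LPS and 3.67 in CRL1506 + LPS. The 3 arrays thus lay close together, with log2 ratios of -0.14 for CRL1505 and 0.11 for CRL1506, neither past the threshold. The other probe had log2 levels of 3.33, 3.76 and 3.33 in the same order, and so was the higher of the pair in CRL1505 + LPS. Its log2 ratios were 0.43 and 0.01, so that the probes of Msr1 differed in sign after CRL1505. Between probes of a gene the log2 ratio had a median SD of 0.23 over the array for CRL1505 and of 0.20 for CRL1506.

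Of the class B receptors, SCARB1 (SR-BI) takes up cholesteryl esters from high-density lipoprotein and CD36 takes up fatty acids and oxidised low-density lipoprotein. SCARB2 carries glucocerebrosidase to the lysosome and sits in the lysosomal membrane. The brighter Scarb1 probe gave log2 levels of 2.36 in LPS, 1.39 in CRL1505 + LPS and 1.91 in CRL1506 + LPS. Its order was the reverse of that of Marco, with LPS highest and CRL1505 + LPS lowest. The log2 ratio was -0.97 for CRL1505, with 8.84% of genes at least as low, and -0.45 for CRL1506, with 14.3% at least as low. The dimmer probe, in another stretch of the gene, gave -0.81 and -0.48, the same signs at a similar size. Over the other normalizations the ratio of the brighter probe ranged from -1.48 to -0.67 for CRL1505, past 2-fold in 5 of 7, and from -0.65 to -0.36 for CRL1506.

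Scarb2 had log2 levels of 1.59 in LPS, 1.71 in CRL1505 + LPS and 1.36 in CRL1506 + LPS with its brighter probe, which spans 1334 bases of the genome and so crosses an intron. The log2 ratios were 0.13 for CRL1505 and -0.23 for CRL1506, and its other probe gave 0.21 and -0.54. Neither probe was past 2-fold with either strain, and the ratio after CRL1505 turned negative in 1 of 7 other normalizations. Cd36 was dim on every array, with signals of 47.2 in LPS, 25.2 in CRL1505 + LPS and 57.6 in CRL1506 + LPS, where the lowest signal well above background was 33.3, 29.6 and 33.1. The CRL1505 + LPS signal was not well above background, so only a bound of at least 1.11-fold lower than LPS is possible. Of 7 other normalizations only 3 gave a bound, from -0.65 to -0.04 on the log2 scale. For CRL1506 the log2 ratio of Cd36 was 0.38, which ranged from -0.04 to 0.46 over the other normalizations and thus changed sign.

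CD68 (macrosialin) is a heavily glycosylated protein of endosomes and lysosomes, used widely as a macrophage marker. The brightest of the 3 Cd68 probes had log2 levels of 6.30 in LPS, 6.62 in CRL1505 + LPS and 6.34 in CRL1506 + LPS. The arrays hardly differed, with log2 ratios of 0.32 and 0.03, and the other 2 probes gave -0.08 and 0.09 for CRL1505 and -0.04 and -0.25 for CRL1506. After each strain the probes of Cd68 therefore differed in sign and none was past 2-fold. CD5L (AIM), a secreted protein with scavenger receptor cysteine-rich domains, protects macrophages from apoptosis. Its probe had signals of 20.4, 7.08 and 33.5 in LPS, CRL1505 + LPS and CRL1506 + LPS, none of them well above background, and no ratio was formed. For CRL1506 + LPS this probe was close to the lowest signal called well above background.

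Among the receptors for dying cells, Mertk had log2 levels of 0.41 in LPS, 0.36 in CRL1505 + LPS and 0.67 in CRL1506 + LPS. CRL1506 + LPS was slightly the highest, and the log2 ratios were -0.05 for CRL1505 and 0.27 for CRL1506. The brighter Axl probe was dim, with signals of 67.4, 52.8 and 53.6 and log2 levels of -3.46, -3.29 and -3.70 in the same order of arrays. Its log2 ratios were 0.17 and -0.24, and the other Axl probe never stood well above background. The ratios of Mertk and Axl after CRL1505 each changed sign in 1 of 7 other normalizations.

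Trem2 had signals of 59352 in LPS, 22186 in CRL1505 + LPS and 47507 in CRL1506 + LPS. On the log2 scale relative to the 75th percentile these were 6.32, 5.42 and 6.09, so that CRL1505 + LPS stood apart below the other two arrays. The log2 ratio was -0.90 for CRL1505, with 9.93% of genes at least as low, and -0.23 for CRL1506, with 30.3% at least as low. It ranged over the other normalizations from -1.40 to -0.60 for CRL1505, past 2-fold in 5 of 7, and from -0.43 to -0.04 for CRL1506. Trem2 has 1 probe on the array, so no second stretch of the transcript was read.

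**Figure D2:**
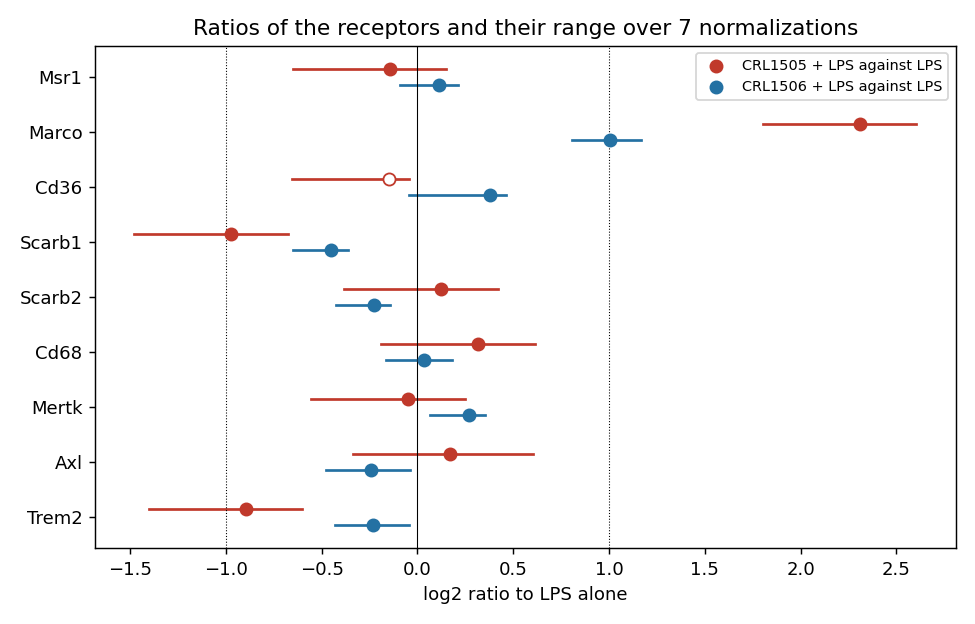
Log2 ratio of each receptor gene to LPS alone (x axis) for CRL1505 + LPS and CRL1506 + LPS. Points are for the 75th percentile shift, open for a lower bound, and dotted lines mark 2-fold. Lines run from the lowest to the highest value over 7 other normalizations, or over the 3 with a bound for Cd36 after CRL1505. The Marco line for CRL1505 lies wholly beyond 2-fold (1.80 to 2.60), and those of Scarb1 (-1.48 to -0.67) and Trem2 (-1.40 to -0.60) cross it on the other side.

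How the arrays were scaled moved these ratios. A shift by 1 number per array moved all genes of a comparison alike, while the other normalizations moved them unequally. With cyclic loess the log2 ratio of Axl after CRL1505 went from 0.17 to 0.60 and that of Trem2 from -0.90 to -1.02. The median log2 ratio of all genes was 0.01 for CRL1505 and -0.06 for CRL1506 with the 75th percentile, 0.33 and -0.26 with a shift by the median, and -0.48 and -0.17 with a shift by the spike-in probes. Of all genes past 2-fold, 53.8% were higher after CRL1505 and 61.4% after CRL1506. Those shares ran from 19.9% with the spike-in probes to 75.8% with the median for CRL1505, and from 43.1% with the median to 68.1% with the 75th percentile over probes well above background on all arrays for CRL1506. The signs of Marco, Scarb1 and Trem2 against LPS were the same in all 7 other normalizations. The signs of Msr1, Scarb2, Mertk, Axl and Cd68 after CRL1505 were not.

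**Figure D3:**
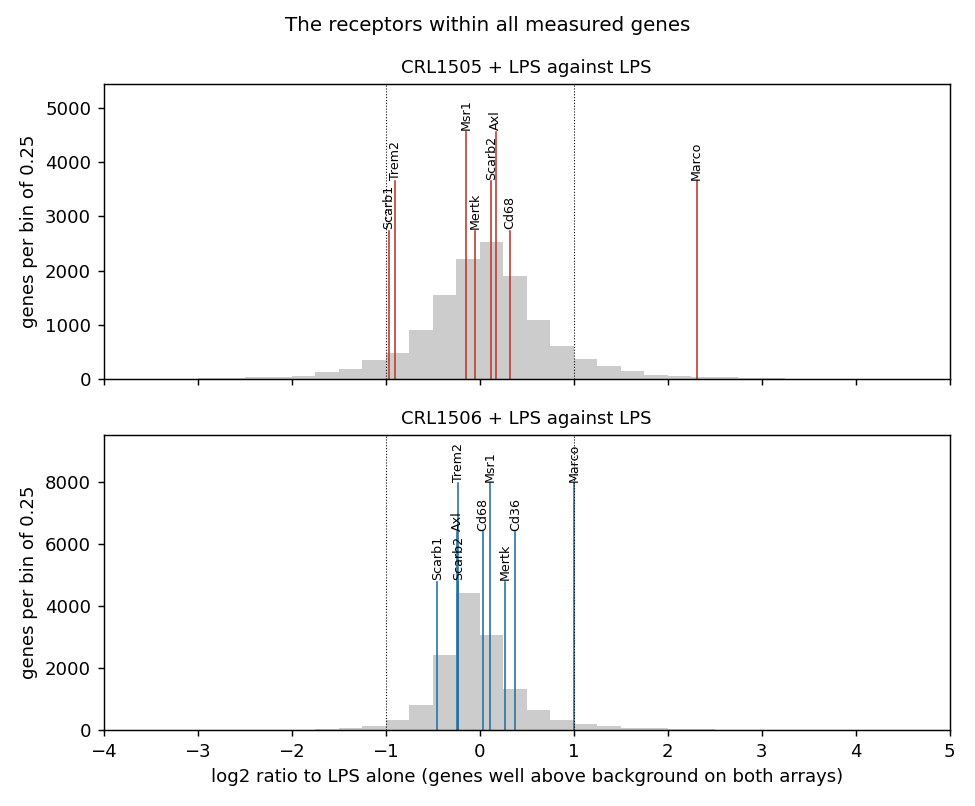
Number of genes (y axis) by log2 ratio to LPS alone in bins of 0.25 (x axis), over genes well above background on both arrays, with the receptor genes measured on both arrays marked by vertical lines and 2-fold by dotted lines. Marco stands in the upper tail after CRL1505 at 2.31 and at the 2-fold line after CRL1506 at 1.01, and the other receptors lie inside the 2-fold lines.

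Set directly against each other, the strains differed past 2-fold in Marco, 2.46-fold higher in CRL1505 + LPS than in CRL1506 + LPS at a log2 ratio of 1.30. This was 1 of 9 members compared, where 8.96% of 15647 genes were at least 2-fold higher, and 0 of 9 were at least 2-fold lower, where 7.44% were, or 16.4% in either direction. The Marco ratio ranged from 0.90 to 1.80 over the other normalizations and was past 2-fold in 6 of 7. Trem2 had a log2 ratio of -0.67 (-1.06 to -0.17 over the other normalizations) and Scarb1 of -0.52 (-0.92 to -0.02). The median over the members was -0.26, against 0.03 over all genes. Over the other normalizations the member median ran from -0.66 with the spike-in probes to 0.24 with the median, and so changed sign. The median over all genes was -0.36 and 0.57 with these normalizations. Since the CRL1505 + LPS array was on its own slide, these differences hold the slide as well as the strain.

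The nearest genes to Marco were sought by the distance between pairs of log2 ratios to LPS, over 13031 genes well above background on all arrays. They were Rgl1 (2.28 for CRL1505 and 1.02 for CRL1506, distance 0.03), Adgre1 (2.27 and 1.003, distance 0.04), which encodes the macrophage surface protein F4/80, and Ifi44 (2.21 and 0.98, distance 0.10), an interferon-induced gene. With 2 ratios that share an array, closeness of this kind describes these 3 arrays only. Among the macrophage markers, Fcgr1, a high-affinity receptor for IgG, also rose after CRL1505 (log2 ratio 2.40) and stood at 0.95 after CRL1506. Csf1r, the receptor for the growth factor M-CSF, fell by 1.47 after CRL1505 and stood at -0.87 after CRL1506. Fcgr1 and Csf1r were named after their values were seen. Of the 10 markers, 2 were at least 2-fold higher after CRL1505 and 1 lower, beside 9.85% and 8.46% of all genes. After CRL1506 1 was higher and 0 lower, beside 5.61% and 3.53%. The median log2 ratio of the markers was 0.15 for CRL1505 and -0.25 for CRL1506.

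Other genes of scavenging and engulfment were followed in 7 lists with 81 genes on the array. After CRL1505, 7 of 70 compared were at least 2-fold higher (10%, beside 9.85% of all genes) and 14 were at least 2-fold lower (20%, beside 8.46%), with a median log2 ratio of -0.22. After CRL1506, 1 of 69 was higher (1.45%, beside 5.61%) and 5 were lower (7.25%, beside 3.53%), with a median of -0.18. Over the other normalizations the higher count for CRL1505 ran from 3 to 10, the lower count ran from 10 to 24 for CRL1505 and from 2 to 8 for CRL1506, and the median for CRL1505 ran from -0.70 to 0.06 and so changed sign. Between the strains 8 of 71 were higher in CRL1505 + LPS (11.3%, beside 8.96% of all genes) and 8 lower (11.3%, beside 7.44%). Over the other normalizations these counts ran from 2 to 14 and from 3 to 15. The shares of all genes given here also stand beside the counts of the single lists below.

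The ligand of MERTK and AXL was among the genes that fell most. Gas6 had signals of 366 in LPS, 39.7 in CRL1505 + LPS and 130 in CRL1506 + LPS. LPS was highest and CRL1505 + LPS lowest, near the lowest signal called well above background, and the log2 ratios of -2.68 and -1.40 were past 2-fold in 7 of 7 other normalizations for each strain, from -3.19 to -1.61 for CRL1505 and from -1.60 to -1.06 for CRL1506. Pros1, which encodes the other bridging protein, protein S, and Tyro3, the third kinase of the family, stood well above background in LPS alone, at signals of 34.6 and 39.3. No fold was given for Pros1, and for Tyro3 only a bound of at least 1.12-fold lower in CRL1506 + LPS.

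Of 17 other receptors and bridging proteins of efferocytosis, 13 could be compared for CRL1505, with 2 higher and 3 lower, and 12 for CRL1506, with 1 higher and 2 lower. Havcr2 (TIM-3), which binds phosphatidylserine, was lower after both strains, at least 10.8-fold for CRL1505, where its probe was not well above background, and 2.06-fold for CRL1506. Over the other normalizations its log2 bound for CRL1505 ranged from -3.94 to -1.94, and its ratio for CRL1506 was past 2-fold in 4 of 7 (-1.24 to -0.86). Cd300a, an inhibitory receptor for phosphatidylserine, fell by 1.48 on the log2 scale after CRL1505 and stood at -0.91 after CRL1506. Cd300lf, a receptor of the same family, had signals of 622 in LPS, 476 in CRL1505 + LPS and 2258 in CRL1506 + LPS. It was high in CRL1506 + LPS alone, at 3.87-fold (log2 ratio 1.95, and 1.75 to 2.04 over the other normalizations), and its log2 ratio for CRL1505 was 0.14. The 2 higher genes for CRL1505, Thbs1 (at least 5.82-fold) and Timd4 (at least 2.54-fold), were named after their values were seen and were not well above background in LPS. Over the other normalizations the log2 bound ranged from 1.48 to 2.95 for Thbs1 and from 0.84 to 1.64 for Timd4, which was past 2-fold in 4 of 7.

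Of 16 other scavenger receptors, 12 could be compared for CRL1505, with 1 higher and 4 lower, and 11 for CRL1506, with 0 higher and 2 lower. Lrp1, an endocytic receptor for lipoproteins and protease complexes, had signals of 5767, 1635 and 3366 in LPS, CRL1505 + LPS and CRL1506 + LPS. It fell by 1.30 on the log2 scale after CRL1505 and stood at -0.69 after CRL1506, the same order as Scarb1. Cd6 and Cd5, which carry scavenger receptor cysteine-rich domains, fell by 1.59 and 1.07 after CRL1505 and stood at -0.75 and -0.51 after CRL1506. The calls of Lrp1, Cd6 and Cd5 for CRL1505 held in 6 of 7 other normalizations each. Cxcl16, the scavenger receptor for phosphatidylserine and oxidised lipoprotein that is also a chemokine, stood at -0.70 after CRL1505 and at -1.05 after CRL1506, where it was past 2-fold in 2 of 7 other normalizations (-1.25 to -0.60). Named after their values were seen, Olr1 (LOX-1) was at least 6.89-fold higher after CRL1505, and Megf10 was at least 4.32-fold lower after CRL1505 and at least 5.23-fold lower after CRL1506. Over the other normalizations the log2 bound ranged from 1.71 to 3.11 for Olr1, from -2.62 to -0.83 for Megf10 after CRL1505, past 2-fold in 5 of 7, and from -2.76 to -1.27 after CRL1506.

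All 11 genes of the TREM family and its signalling could be compared, with 2 higher and 4 lower after CRL1505 and 0 of either after CRL1506. Tyrobp, which encodes the TREM2 adapter DAP12, had signals of 50051, 27512 and 34354 in LPS, CRL1505 + LPS and CRL1506 + LPS, and its log2 ratios of -0.34 and -0.45 did not pass 2-fold. Treml4 fell most, by 2.54 on the log2 scale after CRL1505, and stood at -0.50 after CRL1506. Inpp5d, which encodes the phosphatase SHIP-1, and Treml1 fell by 1.39 and 1.36 after CRL1505, with -0.27 and 0.12 after CRL1506. Treml2 rose by 1.61 after CRL1505 and stood at 0.39 after CRL1506. Syk, the kinase that DAP12 recruits, rose by 1.26 and Trem1 fell by 1.13 after CRL1505, and both were named after their values were seen. Of the calls for CRL1505, those of Syk and Trem1 held in 6 and that of Treml1 in 5 of 7 other normalizations, and those of Treml4, Inpp5d and Treml2 in 7 of 7. The list median was -0.50 for CRL1505 and -0.26 for CRL1506, and the members of the list did not go one way.

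Of 14 genes of the engulfment machinery downstream of the receptors, all of which could be compared, 0 were higher and 2 lower after CRL1505, and 0 passed 2-fold after CRL1506. The genes that fell after CRL1505 were Elmo2 and Dock1, which together form an exchange factor for Rac, by 1.60 and 1.30 on the log2 scale. They stood at -0.37 and -0.73 after CRL1506. Elmo1, named after its value was seen, went the other way after CRL1505, at 0.56, and stood at -0.46 after CRL1506. Vav3, another exchange factor, and Rac2 itself stood at -0.92 and 0.82 for CRL1505 and at -0.27 and 0.49 for CRL1506.

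Among 11 genes of lipid handling linked to CD36 and SCARB1, 1 of 10 compared was higher and 1 lower after CRL1505, and 0 of 9 were higher and 1 lower after CRL1506. Pparg, the nuclear receptor that drives Cd36 in macrophages, was at least 3.23-fold lower after CRL1505 and had a log2 ratio of -0.68 after CRL1506. Its log2 bound for CRL1505 ranged from -2.20 to -0.55 over the other normalizations and was past 2-fold in 5 of 7. Lpl, the lipase that frees fatty acids from triglycerides, stood at -0.43 for CRL1505 and fell by 1.11 after CRL1506, past 2-fold in 6 of 7. The fatty acid binding proteins Fabp5 and Fabp4 stood at 0.98 and 0.62 for CRL1505 and at 0.68 and 0.48 for CRL1506. The higher gene for CRL1505 was Pdzk1, the scaffold of SR-BI, at least 2.61-fold and named after its value was seen, with a log2 bound of 0.84 to 1.68 over the other normalizations, past 2-fold in 4 of 7.

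No gene of the 8 lysosomal membrane proteins was past 2-fold against LPS. Among those well above background on both arrays of a comparison, Lamp2, Lamp5, Laptm5 and Tmem192 differed most. Their log2 ratios were 0.90, -0.75, -0.64 and 0.63 after CRL1505 and -0.18, 0.16, -0.22 and 0.38 after CRL1506. Cd63, named after its value was seen, was at least 1.70-fold higher after CRL1506 and was not well above background in LPS or CRL1505 + LPS. Among 4 genes of receptor shedding, Rhbdf2, a partner needed for the maturation of ADAM17, rose by 1.24 after CRL1505, past 2-fold in 6 of 7 other normalizations, and stood at -0.13 after CRL1506. The proteases Adam17 and Adam10, which cut receptors such as MERTK and TREM2 from the cell surface, stood at -0.58 and -0.41 after CRL1505 and at -0.43 and -0.47 after CRL1506. None of these lists was chosen without knowledge of the data, so their counts describe them and are not evidence for a direction.

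**Figure D4:**
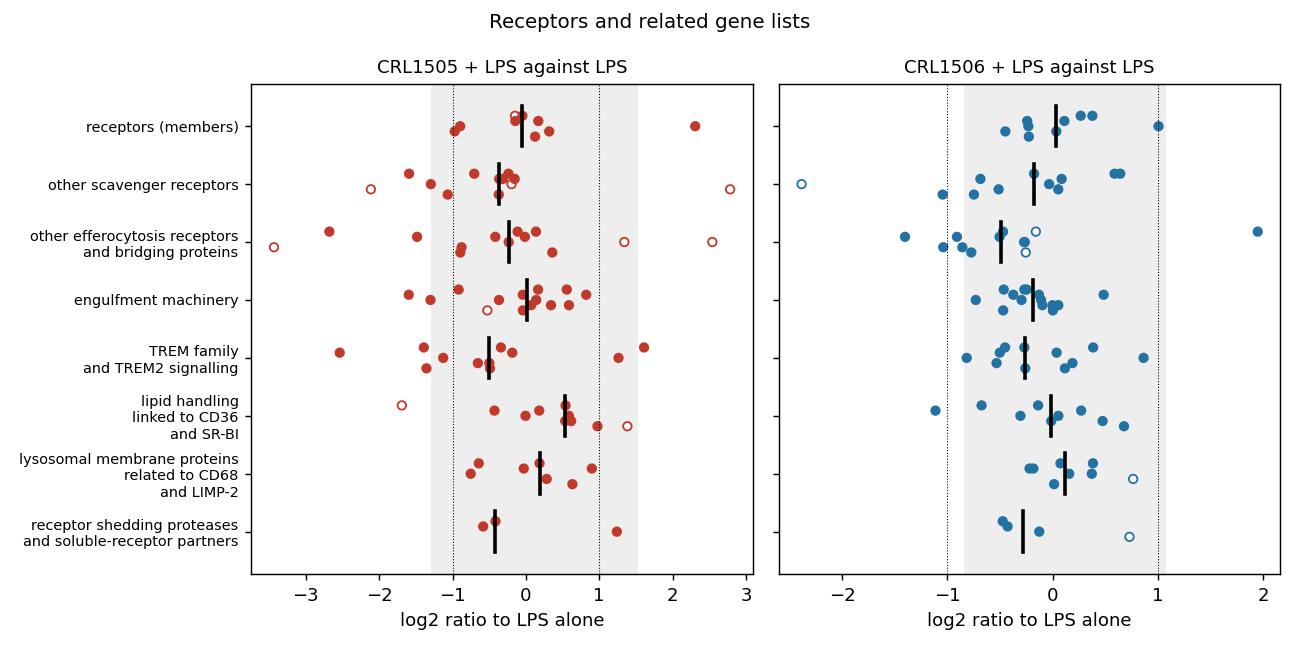
Log2 ratio to LPS alone (x axis) of each gene compared in the receptor list and in the 7 lists of related genes, for CRL1505 + LPS (left) and CRL1506 + LPS (right), with open points for lower bounds, black bars for list medians, dotted lines at 2-fold and a grey band from the 5th to the 95th percentile of all genes. Below the lower 2-fold line lay 14 of 70 related genes after CRL1505, where 8.46% of all genes did, and 5 of 69 after CRL1506, where 3.53% did.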

How the data were processed

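The authors deposited for each of 3 arrays the Feature Extraction output (version 12.0.3.1 per the file headers), whose processed signal is a background-subtracted Cy3 intensity without normalization between arrays. A second deposited file held log2 values, for which the labels name limma and whose median was 6.77 on each array; its correlation with the scanner log2 signal across spots was 0.973 to 0.980.

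From the intensities, each array's 75th percentile over 59305 gene spots was subtracted from its log2 processed signals. Outlier spots (467, 241 and 274 in LPS, CRL1505 + LPS and CRL1506 + LPS) were left out, repeated spots averaged, and a gene read from its brightest probe without outlier spots. A ratio with 1 array not well above background is a lower bound, computed against the lowest signal well above background on that array or the probe's own signal, whichever was higher. A bound under 1 was not given. The threshold was the 2-fold of the methods, whose t-test could not be run on 1 array per condition. The methods set it against cells without LPS, while here it was set against LPS alone or between the strains. Precision is limited by the number of arrays; the log2 SD of repeated spots, 0.04 to 0.05, covers 1 hybridisation only.

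Named by a set rule were all members, Tyro3, Gas6, Pros1, Tyrobp and the 3 genes nearest to Marco. From each related list the 4 genes with the largest ratio among those measured on both arrays were also named. Other genes given with ratios were named after their values were seen. Members and lists were chosen with earlier results of these data known. The 7 other normalizations were the median, quantile, cyclic loess, the 75th percentile over probes well above background on all arrays, spike-in probes, normexp (offset 50) and the deposited table; further alternatives changed the filter, the probe, outlier and uneven spots and the threshold (1.5-fold and 4-fold). Python 3.11.15, pandas 2.3.3, NumPy 2.4.6, matplotlib 3.10.9, R 4.3.3 and limma 3.58.1 were used, and the procedure was checked on simulated arrays. Probes were placed on mm9 by the files. The sequence and position of 1 probe are not reported here.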

Additional observations from a re-analysis of the deposited data

How the results depend on the processing

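No paired analysis was possible because each condition had 1 array, and the shared replicate number is only a name. Of 84 counts of members past 2-fold under alternatives, 66 stayed within 1.5 times the value given above and 18 did not. Of 315 member ratios, 255 moved by less than the spread between probes, many not at all, and 60 by more. The ratios of Marco, the only ones that had passed 2-fold, did not change sign. No member spot was an outlier or uneven, so the alternatives on such spots left every member ratio and count as it was. Those on the filter also repeated the value for most members. These tallies are therefore no measure of how stable the results are. The count of members lower in CRL1505 + LPS than in LPS was 2 in place of 0 with the alternatives that follow. Beside each stand the genes lower among all genes compared. They were quantile normalization (1199 of 14992), cyclic loess (1141 of 15196) and the percentile over probes measured on all arrays (1570 of 15699). The others were the spike-in probes (3156 of 15932), the deposited table (775 of 15735) and a 1.5-fold threshold (2674 of 15475). The count was 1 without a filter on dim probes (3630 of 26391). The count higher in CRL1506 + LPS than in LPS was 0 in place of 1 with the median (657 of 16129 genes higher). It was also 0 with the spike-in probes (766 of 16165), normexp (456 of 16114) and a 4-fold threshold (207 of 16140). Between the strains, the count higher in CRL1505 + LPS was 2 with cyclic loess (1678 of 15018 genes higher), namely Marco and the dim Axl. It was 0 with the spike-in probes (784 of 15872) and a 4-fold threshold (378 of 15647). The count lower was 1 with the spike-in probes (2637 of 15872 genes lower) and the deposited table (573 of 15622). It was also 1 with no filter (3765 of 26437) and a 1.5-fold threshold (2709 of 15647). With no filter that member was again Cd5l, and otherwise it was Trem2. The count higher in CRL1505 + LPS than in LPS was 1 under every alternative run. Beside it, the genes higher at 2-fold ran from 783 of 15932 with the spike-in probes to 2379 of 14984 with the median. They were 454 of 15475 at 4-fold and 2929 of 15475 at 1.5-fold. With so few members this count too is near the background. Without a filter, 37.7% of all calls were higher in CRL1505 + LPS than in LPS. Between the strains that share was 54.6%, and 89.0% with the median, 66.0% with cyclic loess, 36.4% with the percentile over probes measured on all arrays, 22.9% with the spike-in probes, 69.1% with normexp and 34.6% without a filter. Of all genes, 11.1% were past 2-fold in either direction with the deposited table and 12.3% with normexp for CRL1505 against LPS, in place of 18.3%. For CRL1506 these were 4.33% and 4.63%, and 5.72% over probes well above background on every array, in place of 9.14%. Between the strains they were 9.45% and 9.95%, and 26.5% with the median, in place of 16.4%. The cause of these shifts was not tested. Signal over background limited Cd36, Cd5l and Axl.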
